A study of Mus musculus with 5 samples.

Results

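The genes described here serve the glutathione, peroxiredoxin and thioredoxin systems of the mouse mammary gland, the enzymes that remove peroxides and superoxide, conjugate reactive compounds and keep protein thiols reduced. They were taken from the deposited table by gene symbol: the glutathione S-transferases (Gsta, Gstm, Gstp, Gstt, Gsto, Gstz, Gstk and the microsomal Mgst genes), the glutathione peroxidases (Gpx), the peroxiredoxins (Prdx), every symbol starting with Txn, and Gclc, Gclm, Gss, Gsr, Cat, Sod1, Sod2, Sod3, Nqo1, Hmox1, Srxn1 and Nfe2l2. This rule found 72 of the 22609 genes in the table, and 58 of them, among 12511 genes in all, reached 1 RPKM on average, with the columns weighted by their 3 and 2 libraries, and were kept for fold changes. RPKM divides a gene's reads by its length and by the mapped reads of the library, so levels can be set side by side between genes, while levels in different columns also depend on what the rest of each library holds. The symbols also bring in 2 pseudogenes and 14 thioredoxin-like Txndc and Txnl genes, whose proteins mostly serve splicing, the proteasome, cilia or folding in the endoplasmic reticulum rather than peroxide removal.

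The series compared mammary glands of Nfib-null mice (3 libraries, genotype given as a knockout, KO) with those of wild-type mice (2 libraries). All animals were outbred, all glands came from the day of parturition, under 12 hours after delivery, and lymph nodes had been taken out. Nfib is the gene of nuclear factor I/B, a transcription factor, and the series asks how it acts with STAT5 in pregnancy-induced expression. The labels do not say whether Nfib was deleted in every cell, by what means, or whether animals were pooled. The deposited table holds 1 mean per gene for each group and no values per library, so no difference below has a replicate spread or a test. The name of the first column, NfibFF-WC, is explained in no label. It was taken as the Nfib-null one because the other carries the wild-type title.

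In whole gland, a lower level in fewer cells of a type and less RNA per cell cannot be told apart. The 8 milk protein genes checked, caseins, Wap, Lalba and Glycam1, held 26.2% of the summed RPKM in the Nfib-null column and 61.8% in the wild-type column, so milk genes led both columns. Wap and Glycam1 carry the same wild-type value of 102755 RPKM, so the wild-type share rests in part on tied values. Nfib itself had 55.3 RPKM in the Nfib-null column, against 33.7 RPKM in the wild-type column, so its level does not show which column is the knockout. Low values fell at steps that correspond to about 32900000 and 27200000 reads in a pair of the Nfib-null libraries, with the remaining one not resolved, and to about 17700000 and 14900000 reads in the wild-type libraries.

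As background, glutathione is a small thiol made by glutamate-cysteine ligase (Gclc and Gclm) and glutathione synthetase (Gss) and kept reduced by glutathione reductase (Gsr). Glutathione peroxidases and transferases spend it on peroxides and electrophiles, while peroxiredoxins draw on thioredoxin, which thioredoxin reductases recharge with NADPH. The transcription factor NRF2, encoded by Nfe2l2, switches on many of these genes under oxidative or electrophile stress. The lactating gland burns large amounts of fuel and folds large amounts of disulfide-bonded milk protein, and both processes produce hydrogen peroxide.

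Among the members kept, Hmox1, Txnip, Sod3, Gpx2 and Cat had the largest positive differences between the columns, and Gstm7 and Prdx4 the largest negative ones. Gpx2 reached the minimum through the Nfib-null column alone, and its difference was 0.58 with a pseudocount of 5. Hmox1 degrades heme, Txnip restrains thioredoxin, Sod3, Gpx2 and Cat remove superoxide or peroxides, Gstm7 is a transferase and Prdx4 a peroxidase of the endoplasmic reticulum. The genes of glutathione synthesis, the thioredoxins and their reductases lay within 2-fold with the main scaling described next. Differences are given as log2(RPKM + 1), Nfib-null minus wild type, with both columns first set to a common scale by the median ratio of all genes kept. Members whose scaled RPKM + 1 was 2-fold or more apart are called higher or lower, and the others are said to lie within 2-fold. The added pseudocount narrows differences at low levels. Without it the ratio of scaled RPKM, Nfib-null over wild type, was 2.13 for Gpx7 and 5.49 for Gstp2, and neither was called. Of the 58 members kept, 14 (24.1%) were higher in the Nfib-null column and 3 (5.17%) were lower. Among all 12511 genes kept, 6.95% were higher and 5.97% lower, so the share of lower members was near that of all genes. The median over the members was 0.28, beside 0 for all genes.

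These calls depended on how the columns were put on one scale. With values as deposited 21 members were higher and 2 lower (14.4% and 2.95% of all genes). With 13 luminal epithelial genes as the common scale 3 were higher and 19 lower (1.25% and 35.4% of all genes). These 13 genes were themselves scattered with the main scaling, from −0.86 (Ehf) to 2.89 (Kit). Krt18, at 0.90, set the luminal factor, so this scale is not a stable reference. Raising the pseudocount to 5 left 9 higher and 2 lower (2.77% and 3.55% of all genes). At 1.5-fold 21 were higher and 6 lower (17.1% and 14.7%), and at 4-fold 1 each (0.727% and 1.23%). The median of all genes moved to 0.35 and −0.78 in these settings, and the members' median minus that of all genes was 0.32 and 0.26, near the 0.28 of the main scaling. Hmox1 and Txnip remained higher, and Gstm7 and Prdx4 lower, in every one of the 6 scaling and pseudocount alternatives.

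**Figure D1:**
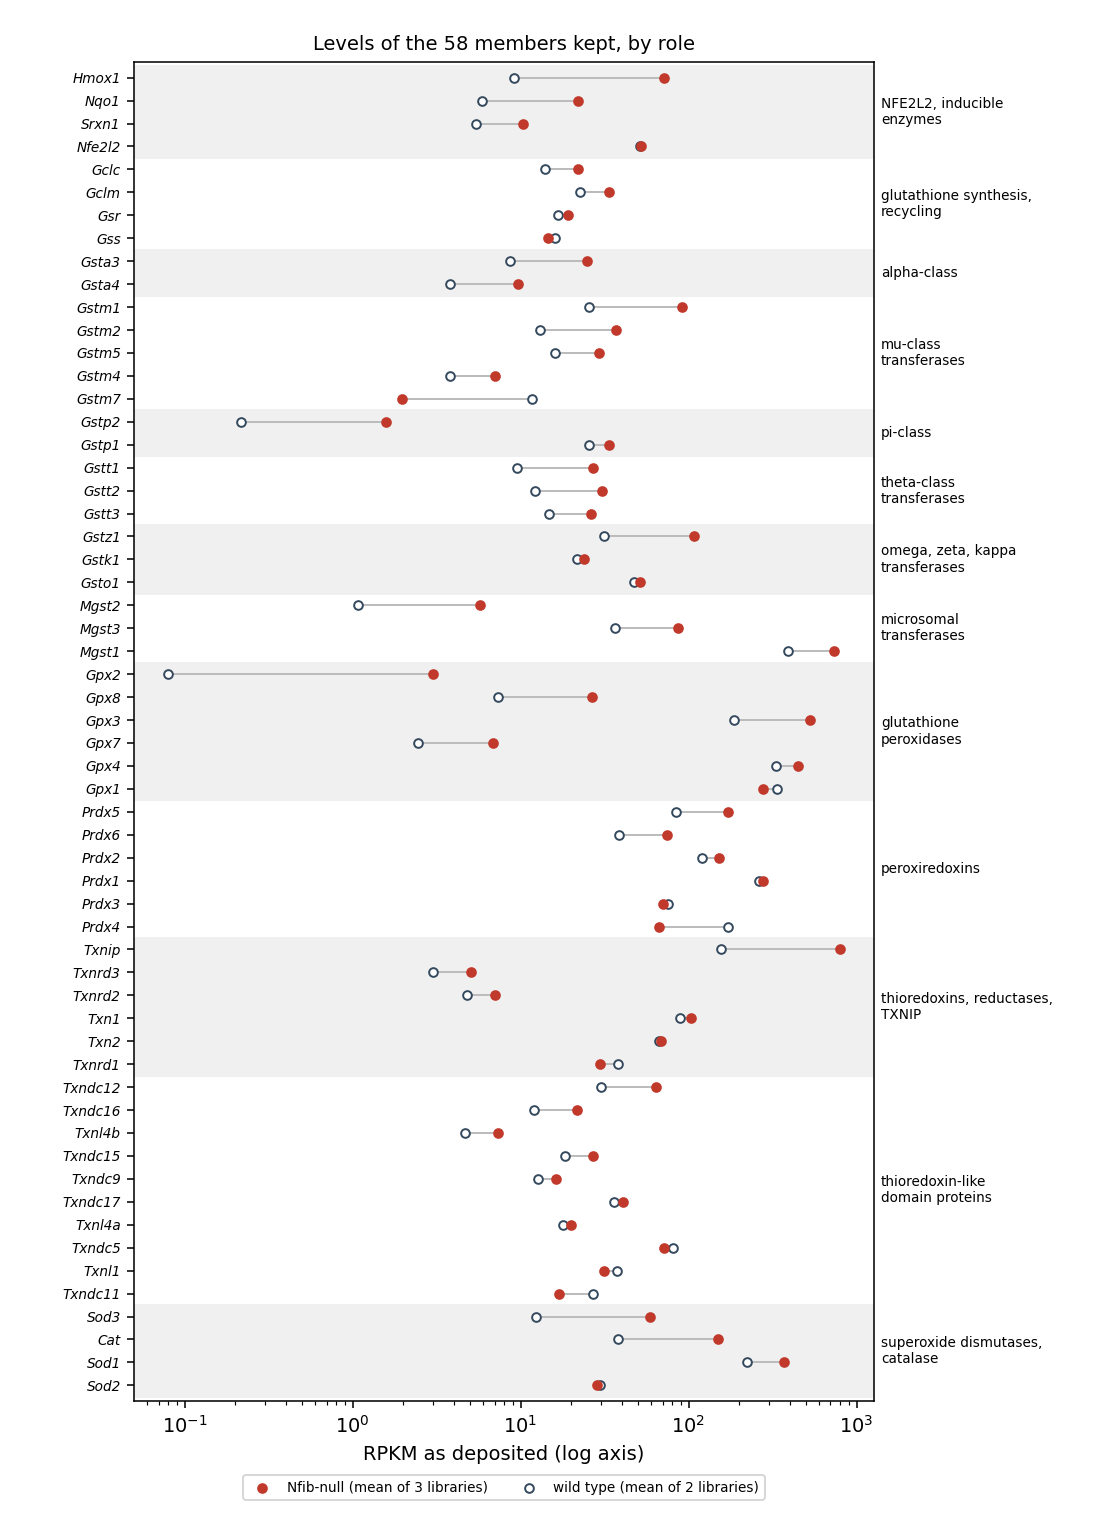
RPKM as deposited of the 58 members kept, on a log axis, with the authors' mean for the Nfib-null column as filled points and for the wild-type column as open points, grouped by role. Txnip (798 RPKM) and Mgst1 (737 RPKM) were the members of highest level in the Nfib-null column, and Gstm7 and Prdx4 were further left in the Nfib-null column than in the wild type.

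Gstm7 lies among the mu-class transferase genes on chromosome 3, in the order Gstm5, Gstm7, Gstm6, Gstm3, Gstm2, Gstm1 and Gstm4, and with the main scaling it was lower while the other 4 mu-class genes kept lay above 0, although Gstm4 and Gstm5 turned to −0.36 and −0.43 with luminal scaling. RefSeq promoters, from 250 bases before to 50 bases after a start, were found for 59 of the 72 members in build GRCm38.p6, which is not the mm9 build of the files. The promoters of Gstm7 (chr3:107931768-107932067, minus strand), of its higher neighbours Gstm1 (chr3:108017924-108018223, minus strand) and Gstm2 (chr3:107986371-107986670, minus strand), and of Prdx4 (chrX:155338411-155338710, minus strand) are shown because these genes went in opposite directions. Of the starts listed for Gstm7 and Gstm1, 2 each, the first is shown. The Gstm7 window was picked because it holds the full NFI site described next, and its other start is not shown. Capitals mark matches on either strand to 4 motifs: the full NFI site (TTGGC, then 5 bases of any kind, then GCCAA), the STAT site TTCNNNGAA, the antioxidant response element core TGACNNNGC to which NRF2 binds, and the E-box CACGTG.
Gstm7: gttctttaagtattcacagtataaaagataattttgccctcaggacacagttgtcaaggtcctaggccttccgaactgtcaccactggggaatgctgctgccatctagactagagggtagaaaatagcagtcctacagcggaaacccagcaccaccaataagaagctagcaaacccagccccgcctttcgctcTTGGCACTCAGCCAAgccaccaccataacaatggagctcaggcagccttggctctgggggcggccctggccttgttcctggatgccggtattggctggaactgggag
Gstm1: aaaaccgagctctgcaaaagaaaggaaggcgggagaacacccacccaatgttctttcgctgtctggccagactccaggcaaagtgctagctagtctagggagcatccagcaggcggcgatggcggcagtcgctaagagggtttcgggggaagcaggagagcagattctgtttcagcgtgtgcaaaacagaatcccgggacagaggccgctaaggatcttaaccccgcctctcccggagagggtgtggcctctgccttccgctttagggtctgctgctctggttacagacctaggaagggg
Gstm2: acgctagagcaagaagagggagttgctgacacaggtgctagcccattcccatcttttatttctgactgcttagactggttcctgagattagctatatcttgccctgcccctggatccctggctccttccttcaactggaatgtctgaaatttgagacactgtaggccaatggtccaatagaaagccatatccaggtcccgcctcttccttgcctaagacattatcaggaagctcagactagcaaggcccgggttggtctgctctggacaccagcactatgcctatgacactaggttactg
Prdx4: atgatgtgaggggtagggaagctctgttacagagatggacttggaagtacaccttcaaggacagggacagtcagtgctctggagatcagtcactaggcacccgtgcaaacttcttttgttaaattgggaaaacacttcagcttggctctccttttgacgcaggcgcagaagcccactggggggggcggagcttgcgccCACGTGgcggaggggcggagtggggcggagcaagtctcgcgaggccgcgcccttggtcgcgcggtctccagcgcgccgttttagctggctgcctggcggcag

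The Gstm7 promoter held the full NFI site from 57 to 43 bases before the start, and no other motif searched overlapped it. Only 12 of 32851 promoters (0.0365%) held these letters, and Gstm7 was the only one of the 59 members that did. The antioxidant response element core stood in a promoter of 13 of the 59 members and in one of 14.0% of all 27025 genes, among them Gclm, Txnrd1, Srxn1, Prdx1 and Nfe2l2 itself. It stood in 1 of the 12 matched members called higher, Gsta3, and in 2 of the 3 called lower, Gstm7 at its other start and Txndc11. The STAT site stood in 8 members (13.6%, beside 9.55% of all genes) and the E-box in 4 (6.78%, beside 8.09%), one of them Prdx4. A match is a description of letters in this window and does not show binding.

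Nfe2l2 lay within 2-fold with the main scaling. Of the 3 inducible enzymes grouped with it here, Srxn1 lay within 2-fold and Hmox1 and Nqo1 were higher. NRF2 switches on many other genes, so these 3 do not describe its output. Among other members, Gclc (0.24), Gclm (0.16), Gsr (−0.20), Prdx1 (−0.34) and Txnrd1 (−0.74) lay within 2-fold. Nfe2l2 had 51.8 RPKM in the Nfib-null column, against 51.1 RPKM in the wild-type column (log2 −0.38), and passed 2-fold lower with luminal scaling (−1.27). Hmox1, heme oxygenase, which breaks heme down to biliverdin, iron and carbon monoxide, had 71.6 RPKM in the Nfib-null column, against 9.14 RPKM in the wild type (log2 2.45). That was the largest difference of any member kept with the main scaling and a pseudocount of 1. At a pseudocount of 0.1 Gpx2 (3.81) and Gstm7 (−2.91) were further from 0 than Hmox1 (2.55). With luminal scaling Gstm7 (−3.11) and Prdx4 (−2.66) were further from 0 than Hmox1 (1.59). Nqo1, a quinone reductase, stood at 22.1 RPKM, against 5.93 RPKM in the wild type (log2 1.36). Srxn1, sulfiredoxin, which repairs over-oxidised peroxiredoxins, stood at 10.3 RPKM, against 5.40 RPKM in the wild type (log2 0.46, within 2-fold). The ratio of Hmox1 to Nfe2l2 within a column of deposited values, which a common factor for the column does not change, was 1.38 in the Nfib-null column and 0.179 in the wild type. Nqo1 lay within 2-fold with luminal scaling (0.54).

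None of the 4 genes that make and recycle glutathione was 2-fold apart with the main scaling. Gclc, the catalytic subunit of the rate-limiting ligase, had 22.1 RPKM in the Nfib-null column, against 13.9 RPKM in the wild type (log2 0.24). Gclm, its modifier subunit, stood at 33.6 RPKM, against 22.5 RPKM in the wild type (0.16). The ratio of Gclc to Gclm was 0.656 in the Nfib-null column and 0.617 in the wild type. Gss stood at 14.6 RPKM, against 16.1 RPKM in the wild type (−0.52), and Gsr at 19.2 RPKM, against 16.7 RPKM in the wild type (−0.20). With luminal scaling all 4 were below 0 and Gss and Gsr passed 2-fold lower (−1.36 and −1.06).

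The transferases, which attach glutathione to reactive compounds, were the largest family, and 18 of 24 were kept. Of these, 6 (33.3%) were higher and 1 (5.56%) was lower, beside 6.95% and 5.97% of all genes. Their median was 0.81, which turned to −0.025 with luminal scaling. There 0 were higher and 3 (16.7%) lower, beside 1.25% and 35.4% of all genes. Among the 7 mu-class genes, Gstm1 had 91.7 RPKM in the Nfib-null column, against 25.5 RPKM in the wild type (log2 1.41), and Gstm2 had 37.1 RPKM, against 13.1 RPKM in the wild type (1.05). Gstm5 (29.2 RPKM, against 15.9 RPKM in the wild type) and Gstm4 (7.01 RPKM, against 3.81 RPKM in the wild type) lay within 2-fold at 0.44 and 0.39. Gstm7 had 1.98 RPKM in the Nfib-null column, against 11.7 RPKM in the wild type (−2.42). Gstm7 thus made up 1.18% of the summed mu-class RPKM in the Nfib-null column and 16.6% in the wild type, and the ratio of Gstm1 to Gstm7 was 46.3 in the Nfib-null column and 2.17 in the wild type.

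The other Gst classes had no member called lower with the main scaling. Gstz1, which is also an enzyme of tyrosine breakdown, had 108 RPKM in the Nfib-null column, against 31.4 RPKM in the wild type (log2 1.34), and was the transferase of the highest level after Mgst1 in the Nfib-null column, while in the wild type Gsto1 and Mgst3 also stood above it. Gsta3 stood at 24.8 RPKM, against 8.60 RPKM in the wild type (1.05), and Gstt1 at 27.0 RPKM, against 9.55 RPKM in the wild type (1.02), the call nearest to the 2-fold limit. Gstt2 (30.6 RPKM, against 12.2 RPKM in the wild type) and Gsta4 (9.59 RPKM, against 3.78 RPKM in the wild type) lay just under 2-fold at 0.88 and 0.80. Gstt3 stood at 26.2 RPKM, against 14.7 RPKM in the wild type (0.40, and −0.46 with luminal scaling). Gsto1, Gstk1 and Gstp1 were the flattest, at −0.27, −0.26 and −0.0045, with Gsto1 at 51.6 RPKM, against 47.1 RPKM in the wild type. With luminal scaling Gsto1 and Gstk1 passed 2-fold lower (−1.16 and −1.12), and Gstz1, Gsta3 and Gstt1 lay within 2-fold. With a pseudocount of 5 Gsta3 (0.83), Gstt1 (0.83) and Gstm2 (0.89) lay within 2-fold.

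Mgst1, a membrane-bound transferase and peroxidase, was the most abundant transferase in both columns, at 737 RPKM in the Nfib-null column, against 391 RPKM in the wild type (log2 0.50). Mgst3 stood at 86.7 RPKM, against 36.5 RPKM in the wild type (0.82), and Mgst2, which can make leukotriene C, at 5.70 RPKM, against 1.08 RPKM in the wild type (1.40). Mgst1 and Mgst3 turned to −0.40 and −0.07 with luminal scaling, and Mgst2 lay within 2-fold there and with a pseudocount of 5.

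Of the 6 glutathione peroxidases kept, 5 lay above 0 with the main scaling and Gpx1 lay below 0. Of the 6, 3 (50%) were higher, beside 6.95% of all genes. Their median was 0.98, which became 0.17 with luminal scaling. There 1 was higher and 1 lower (16.7% each), beside 1.25% and 35.4% of all genes. Gpx3, the plasma form secreted from cells, had 531 RPKM in the Nfib-null column, against 187 RPKM in the wild type (log2 1.09). Gpx1, the main intracellular form, stood at 278 RPKM, against 335 RPKM in the wild type (−0.68). Gpx4, which clears lipid hydroperoxides in membranes, stood at 450 RPKM, against 330 RPKM in the wild type (0.04). Gpx3 therefore led the family in the Nfib-null column with 41.0% of its summed RPKM, against 21.7% in the wild type, where Gpx1 held 38.8%, against 21.5% in the Nfib-null column. The ratio of Gpx3 to Gpx1 was 1.91 in the Nfib-null column and 0.559 in the wild type.

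The endoplasmic reticulum forms Gpx8 and Gpx7 stood at 26.5 and 6.89 RPKM in the Nfib-null column, against 7.37 and 2.43 RPKM in the wild type (log2 1.33 and 0.87). Gpx2, known from the gut epithelium, stood at 2.99 RPKM, against 0.0796 RPKM in the wild type (1.72), and it passed the minimum through the Nfib-null column alone. Its wild-type value corresponds to about 3 reads for its shortest transcript and 8 for its longest. The fold from those reads was 32.8 (95% exact interval 11.1 to 160) and 38.5 (19.5 to 89.6), covering counting error only. These intervals do not test the difference between the groups. Gpx2 was kept through its Nfib-null value alone, the reads are estimates, and no spread between libraries enters. Gpx2 lay within 2-fold with a pseudocount of 5 (0.58). Gpx3 and Gpx8 lay within 2-fold with luminal scaling (0.19 and 0.49), in which Gpx1 passed 2-fold lower (−1.58). Gpx5 and Gpx6 were listed at 0 in both columns.

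**Figure D2:**
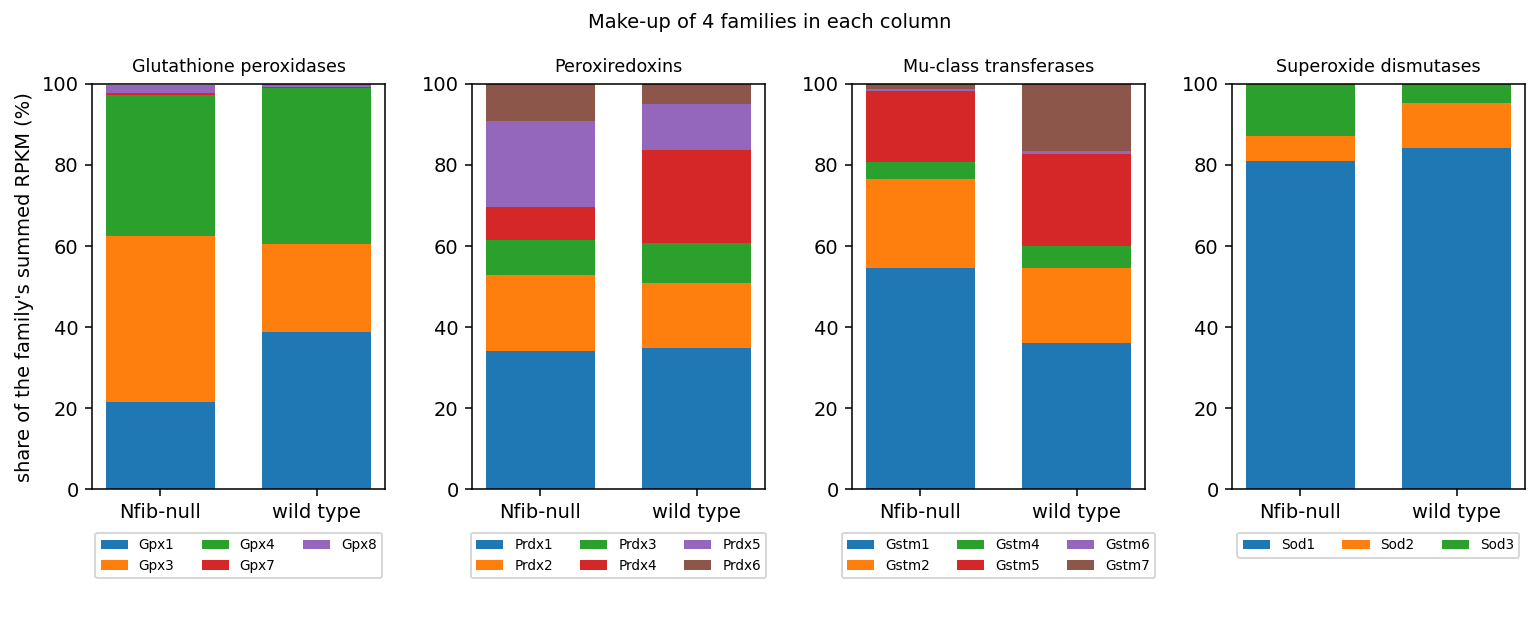
Share of each family's summed RPKM held by its members in the Nfib-null column (left bar) and the wild-type column (right bar) for glutathione peroxidases, peroxiredoxins, mu-class transferases and superoxide dismutases, leaving out members under 0.5% in both columns. Gpx3 held 41.0% of its family in the Nfib-null column and 21.7% in the wild type, Prdx4 8.23% and 22.9%, Gstm7 1.18% and 16.6%, and Sod3 12.9% and 4.64%, and a common factor for a column does not change these shares.

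Among the peroxiredoxins, which use a reactive cysteine to reduce peroxides, 1 of 6 kept members was 2-fold apart with the main scaling. It was lower (16.7%, beside 5.97% of all genes). With luminal scaling 3 of 6 (50%) were lower, beside 35.4% of all genes. Prdx4, the form of the endoplasmic reticulum that couples hydrogen peroxide to disulfide formation in secreted proteins, had 66.6 RPKM in the Nfib-null column, against 173 RPKM in the wild type (log2 −1.77). It was the second of the family by level in the wild type, with 22.9% of the summed RPKM, and held 8.23% in the Nfib-null column, the least of the 6. Prdx1, the main cytosolic form, stood at 276 RPKM, against 262 RPKM in the wild type (−0.34), and Prdx2 at 151 RPKM, against 120 RPKM in the wild type (−0.08). Prdx3, of the mitochondrial matrix, stood at 70.0 RPKM, against 75.5 RPKM in the wild type (−0.51). Prdx5 (172 RPKM, against 84.0 RPKM in the wild type) and Prdx6 (74.0 RPKM, against 38.5 RPKM in the wild type) differed by 0.62 and 0.52, and both were below 0 with luminal scaling (−0.28 and −0.37), in which Prdx1 and Prdx3 passed 2-fold lower (−1.24 and −1.40).

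Txn1, Txn2 and the thioredoxin reductases lay within 2-fold with the main scaling, while the thioredoxin inhibitor Txnip was the most abundant member in the Nfib-null column. Txnip, the thioredoxin-interacting protein, which binds thioredoxin and restrains glucose uptake, had 798 RPKM in the Nfib-null column, against 156 RPKM in the wild type (log2 1.94). It ranked 60th of all genes in the Nfib-null column and 316th in the wild type. Txn1, cytosolic thioredoxin, stood at 103 RPKM, against 88.6 RPKM in the wild type (−0.19), so the ratio of Txnip to Txn1 was 7.75 in the Nfib-null column and 1.76 in the wild type. Txn2, the mitochondrial thioredoxin, stood at 68.4 RPKM, against 66.3 RPKM in the wild type (−0.36).

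The reductases Txnrd1, Txnrd2 and Txnrd3 differed by −0.74, 0.13 and 0.26. Txnrd1, the cytosolic one, had 29.9 RPKM in the Nfib-null column, against 38.2 RPKM in the wild type, and passed 2-fold lower with luminal scaling (−1.62), as did Txn1 (−1.09) and Txn2 (−1.25). For Txnip, 15.7% of the 50-base windows of its transcripts are shared with Gm15441, which lies across it on the opposite strand, and without known strand their reads cannot be told apart, although Gm15441 was listed at only 0.485 RPKM in the Nfib-null column, against 0.200 RPKM in the wild type.

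Of the 14 thioredoxin-like Txndc and Txnl genes, 10 were kept. With luminal scaling 5 (50%) were lower, beside 35.4% of all genes, and the median was −1.01. With the main scaling 0 were higher and 1 (10%) was lower, beside 5.97% of all genes, with a median of −0.14. The lower one was Txndc11, of the endoplasmic reticulum, which had 16.9 RPKM in the Nfib-null column, against 27.1 RPKM in the wild type (log2 −1.04), a call lost with values as deposited (−0.65), quantile normalization (−0.94), equal sums (−0.88) and a pseudocount of 5 (−0.88). Txndc5, a protein disulfide isomerase and the member of the group with the highest mean, stood at 71.7 RPKM, against 80.6 RPKM in the wild type (−0.57, and −1.46 with luminal scaling). Txndc12, also of the endoplasmic reticulum, stood at 63.7 RPKM, against 30.0 RPKM in the wild type (0.66). Of 7 endoplasmic reticulum members listed after the values had been seen, Prdx4 and Txndc11 were lower with the main scaling (28.6%, beside 5.97% of all genes). Gpx8 was higher (14.3%, beside 6.95%), and Txndc5, Txndc12, Txndc16 and Gpx7 lay within 2-fold. Hmox1 (2.45) and the microsomal Mgst1 (0.50), Mgst2 (1.40) and Mgst3 (0.82) were not in this list, so its counts do not describe all members of that compartment.

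Catalase and the extracellular superoxide dismutase were among the larger positive differences. Cat, the peroxisomal enzyme that splits hydrogen peroxide, had 151 RPKM in the Nfib-null column, against 38.2 RPKM in the wild type (log2 1.55). Sod3, secreted into the matrix, stood at 58.8 RPKM, against 12.3 RPKM in the wild type (1.77). Sod1, the cytosolic copper-zinc enzyme, stood at 369 RPKM, against 224 RPKM in the wild type (0.31), and Sod2, the mitochondrial manganese enzyme, at 28.5 RPKM, against 29.5 RPKM in the wild type (−0.45). Sod3 made up 12.9% of the summed Sod RPKM in the Nfib-null column and 4.64% in the wild type. With luminal scaling Sod3 (0.90) and Cat (0.65) lay within 2-fold, Sod1 was below 0 (−0.60) and Sod2 passed 2-fold lower (−1.32). A list of 4 members of the mitochondrial matrix, Prdx3, Txn2, Txnrd2 and Sod2, was made after their values had been seen. They differed by −0.51 to 0.13, and their summed levels were 174 RPKM in the Nfib-null column, against 176 RPKM in the wild type. The list is not a complete one of mitochondrial members: Prdx5 (0.62) and Gstk1 (−0.26) were left out of it.

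**Figure D3:**
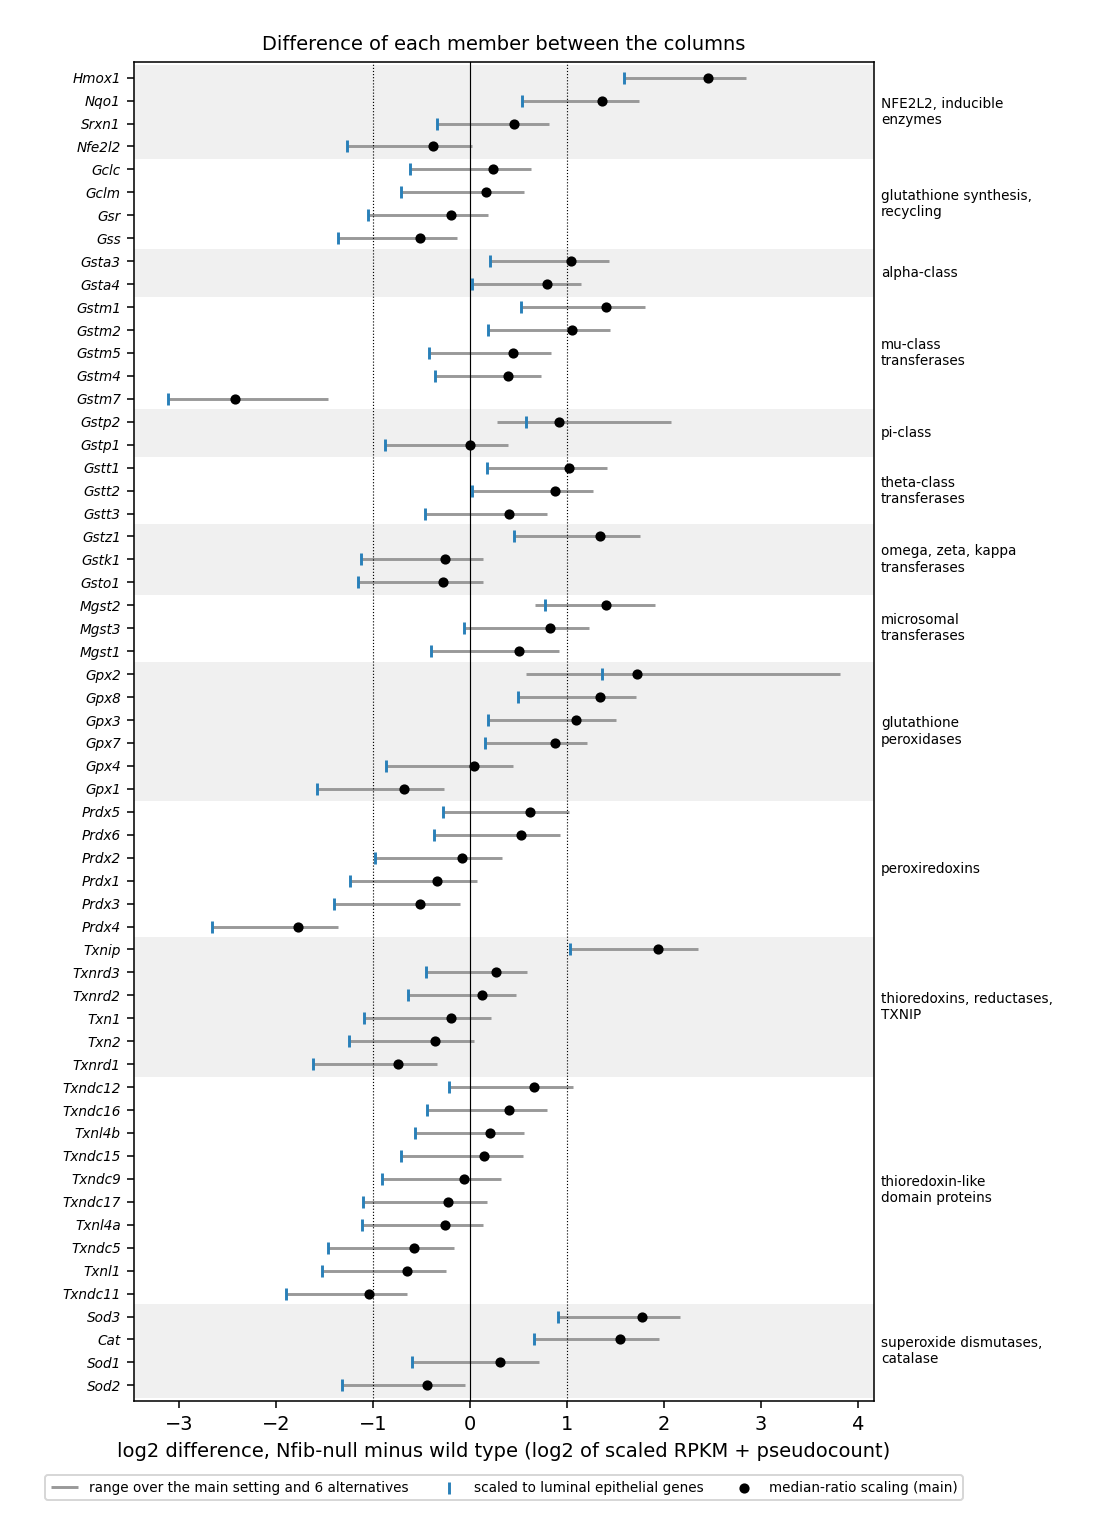
Log2 difference of each of the 58 members, Nfib-null minus wild type, with black points for the main scaling, grey lines for the range over it and 6 alternatives, blue ticks for scaling to luminal epithelial genes, and dotted lines at 2-fold. Hmox1 and Txnip stay beyond the upper line and Gstm7 and Prdx4 beyond the lower line in all settings shown, whereas Nqo1, Cat, Sod3, Gpx3 and the 6 transferases called higher come within 2-fold with luminal scaling.

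Summed over all 72 members, levels came to 5620 RPKM in the Nfib-null column, against 3368 RPKM in the wild type. That was 1.02% of the column's sum in the Nfib-null column and 0.355% in the wild type, and 1.39% and 0.929% once the 8 milk protein genes were left out of the sums. The 14 members below the minimum were Gsta1, Gsta2, Gstm3, Gstm6, Gsto2, Gstt4, Gpx5, Gpx6, Gpx2-ps1, Prdx6-ps1, Txndc2, Txndc3, Txndc6 and Txndc8, and 5 of them were listed at 0 in both columns. Just inside the minimum was Gstp2, with a mean of 1.03 RPKM (1.57 RPKM in the Nfib-null column, 0.215 RPKM in the wild type, log2 0.92), and just outside it was Gstm6, with a mean of 0.878 RPKM (1.11 RPKM in the Nfib-null column, 0.531 RPKM in the wild type).

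Other genes of the same pathway, outside the member rule, were called lower or lay within 2-fold with the main scaling. Of 40 listed names, 38 were in the table and 37 were kept, and of these 0 were higher and 5 lower, with a median of −0.023, whereas 5 were higher and 1 lower on the deposited values and 0 were higher and 13 lower with luminal scaling. The 5 lower with the main scaling were 13.5% of those kept, beside 5.97% of all genes, while the 5 higher on the deposited values (13.5%, beside 14.4%) and the 13 lower with luminal scaling (35.1%, beside 35.4%) were near the shares of all genes. Glrx, glutaredoxin, which uses glutathione to reduce protein thiols, had 25.1 RPKM in the Nfib-null column, against 108 RPKM in the wild type (log2 −2.46). Nnt and Me1, which supply NADPH in mitochondria and cytosol, differed by −1.35 and −1.25, with Me1 at 180 RPKM in the Nfib-null column, against 322 RPKM in the wild type. Idh1, of the same list, went the other way within 2-fold, at 48.9 RPKM, against 19.6 RPKM in the wild type (0.88). Ggt1, which starts the breakdown of extracellular glutathione, stood at 24.7 RPKM, against 39.5 RPKM in the wild type (−1.05). Pgd, an NADPH source of the pentose phosphate pathway, stood at 135 RPKM, against 205 RPKM in the wild type, just at the 2-fold limit after scaling. On the deposited values Nnt (−0.996), Me1 (−0.84), Ggt1 (−0.66) and Pgd (−0.59) lay within 2-fold. Only Glrx of these 5 stayed lower there (−2.06). Keap1, the repressor of NRF2, stood at 15.9 RPKM, against 12.8 RPKM in the wild type (−0.09). Blvrb and Blvra, which act after heme oxygenase on biliverdin, differed by 0.63 and 0.34, and the ratio of Hmox1 to Blvrb was 1.72 in the Nfib-null column and 0.459 in the wild type.

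Marker genes of several other cell types differed alongside the members. All 12 adipocyte markers kept were at least 2-fold higher (summed levels of 13964 RPKM in the Nfib-null column, against 2764 RPKM in the wild type), as were 9 of 9 fibroblast markers (1804 and 481 RPKM) and 7 of 8 macrophage markers (446 and 130 RPKM), and no marker in these lists was at 0. With luminal scaling 7 of the 12, 1 of the 9 and 0 of the 8 were higher. Of 13 luminal epithelial markers 6 were higher and 0 lower (1988 and 899 RPKM), and of 7 endothelial markers 0 were 2-fold apart (174 and 126 RPKM), as were 0 of 7 myoepithelial markers (1017 and 599.6 RPKM). Lymphocyte markers went the other way, with 0 of 7 higher and 5 lower (median log2 −1.19), and 7 of 7 lower with luminal scaling. Of 6 skeletal muscle markers 1 was higher and 2 were lower (48.4 and 17.7 RPKM). Of the 7 erythroid markers with values, 1 was kept and lay within 2-fold, and 3 were listed at 0 in both columns. The ratio of Hmox1 to the macrophage gene Cd68 was 1.46 in the Nfib-null column and 0.816 in the wild type, that of Sod3 to the fibroblast gene Dcn 0.134 and 0.112, and those of Cat and Gpx3 to the adipocyte gene Adipoq 0.222 and 0.784 in the Nfib-null column and 0.341 and 1.67 in the wild type. The part of these cell types in the members' differences was not tested.

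**Figure D4:**
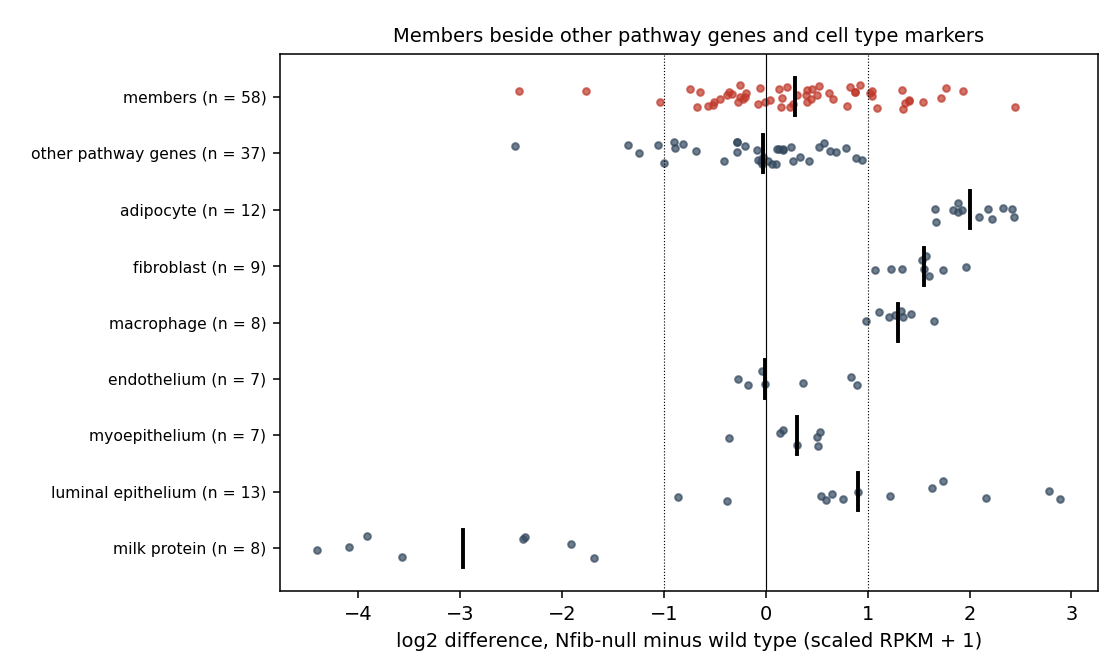
Log2 differences, Nfib-null minus wild type, of the members kept (red), of other pathway genes and of cell type markers (dark), 1 point per gene with a black bar at each median and dotted lines at 2-fold. Members spread from −2.42 to 2.45 around a median of 0.28, between the adipocyte markers (median 2.01) and the milk protein genes (median −2.97). With scaling to luminal epithelial genes the members' median was −0.51.

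Several members share sequence with other genes, which makes their counts uncertain where the authors' counting could split reads. Of the 50-base windows in the transcripts of a gene in GENCODE M21, 54.3% of those of Gstp2 also stood in another gene, above all Gstp1, and so did 34.7% for Gpx4, shared most with the pseudogene Gpx4-ps2, and 18.9% for Gstm1, shared most with Gstm2-ps1. For Gstm7 the share was 0.532% and for Prdx4 0%.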

How the data were processed

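Poly(A) RNA from whole mammary glands without lymph nodes was sequenced as TruSeq libraries on an Illumina HiSeq instrument, per the labels' protocols. Reads were handled with CASAVA and TopHat against mm9, per the submitters' processing notes, which give no versions. How reads were counted, on which annotation and whether by strand is not given in the sources used here. The values were deposited by the authors as RPKM, per the file headers, 1 mean per group for each of 22609 genes. In the NfibFF-WC column 84.4% of the 12205 values written to 10 decimals had repeating 3s or 6s at the end, as a mean of 3 libraries gives, against 0% of 67 in the wild-type column. Among 489 wild-type values of at least 100 RPKM, 8 were tied with another gene, and 0 kept members had a tie. Whether the authors used a rank-based step is not stated.

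The 12511 genes with a weighted mean (3 and 2 libraries) of 1 RPKM or more were kept. Columns were divided by median-ratio factors of 1.153 (Nfib-null) and 0.867 (wild type), a pseudocount of 1 was added, and log2 differences were taken in Python 3.11.15 with pandas 2.3.3, tested first on simulated data. With 1 value per group no test, standard error or p-value could be had. Every kept member 2-fold apart, the 2 of highest mean in each role, and the core enzymes of each system were named with a fold change. The members and lists were chosen with earlier results of these data known. Motifs, ratios, compartments and further named genes were chosen after their values had been seen. Reads behind a value were estimated from steps among the low values of genes with a single transcript in GENCODE M21, and are approximate.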

Additional observations from a re-analysis of the deposited data

How the results depend on the processing

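No paired analysis was possible because the table holds group means, and for the same reason no library could be left out. The 14 members called higher became 3 with scaling to luminal epithelial genes (5.17%, beside 1.25% of all genes). They became 9 with a pseudocount of 5 (15.5%, beside 2.77%) and 1 with a limit of 4-fold (1.72%, beside 0.727%). The 3 called lower became 19 with luminal scaling (32.8%, near the 35.4% of all genes). They became 6 with a limit of 1.5-fold (10.3%, beside 14.7%) and 1 with a limit of 4-fold (1.72%, beside 1.23%). The members' median of 0.28 became 0.67 with values as deposited, 0.44 with equal sums leaving out the top 20 genes, −0.51 with luminal scaling and 0.42 without the Txnl and Txndc genes. The transferases' median of 0.81 became 1.11 as deposited, 0.97 with equal sums, −0.025 with luminal scaling and 0.50 with a pseudocount of 5. The luminal scaling shifts every gene by the same factor. The cause of the difference between scalings was not tested. Under quantile normalization, a pseudocount of 0.1, without any filter and at a minimum of 5 RPKM, both counts stayed within 1.5 times and the medians that were recomputed within 0.1. Of the 14 higher members 2 and of the 3 lower members 2 kept their call in all 6 scaling and pseudocount alternatives. Depth limits the low members Gpx2 and Gstp2 most, and with no values per library no difference has a replicate check.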

Other observations

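The full NFI site found in the Gstm7 promoter was looked up among all promoters after it had been seen there. The 12 genes whose promoters held it included 6 in the deposited table, of which 4 were kept. Their log2 differences, Nfib-null minus wild type, were −2.42 for Gstm7, −0.68 for Fam160a1, −0.19 for Galt, an enzyme of galactose metabolism, and 0.32 for Oasl1. Gstm7 was the 1 gene of the 4 beyond 2-fold, and the site is thus present in promoters of genes that lay within 2-fold.

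Several ratios between members within a column differed between the columns. The ratio of Gstm1 to Gstm7 was 21.3 times as high in the Nfib-null column as in the wild type, that of Gstm2 to Gstm7 16.8 times, that of Cat to Gpx1 4.75 times and that of Txnip to Txn1 4.40 times. The ratio of Prdx4 to Prdx1 was 0.366 times that of the wild type. Prdx4 (−1.77) lay between the milk protein genes Csn1s2a (−1.69) and Csn2 (−1.92) by its log2 difference, and all 8 milk protein genes were lower, with differences of −4.40 to −1.69.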
